A study of Homo sapiens with 27 samples.

Results

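The RB family, the MuvB complex and the factors MYBL2 and FOXM1 were followed here as 10 genes of the 57992 in the deposited table: RB1, RBL1, RBL2, LIN9, LIN37, LIN52, LIN54, MYBL1, MYBL2 and FOXM1. Their rows were found by gene symbol, the set was named with earlier results of these data known, and all 10 had a row. RNA was sequenced from 27 libraries of 3 human acute myeloid leukaemia (AML) cell lines, MOLM-13, MV411 and SKNO1. MOLM-13 and MV411 carry KMT2A fusions and SKNO1 carries RUNX1-RUNX1T1. Every line had 3 groups of 3 replicates, all made with constitutive lentiviral vectors: shScramble (the control hairpin), shCARM1 hairpin 1 and shCARM1 hairpin 2. CARM1, also named PRMT4, is a protein arginine methyltransferase. RNA was taken on day 3 after the hairpins were delivered, and all SKNO1 groups, the controls included, were grown with 10 ng/mL GM-CSF. No label says whether replicates were separate cultures, so p-values measure only the spread between these samples, which may be technical. The comparison asks how each CARM1 hairpin moved these genes against shScramble in the same line.

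RB1, RBL1 (p107) and RBL2 (p130) are the pocket proteins, which bind E2F factors and hold back genes of the cell cycle until cyclin-dependent kinases phosphorylate them. LIN9, LIN37, LIN52, LIN54 and RBBP4 form the MuvB core, which joins RBL1 or RBL2 and E2F4 in resting cells as the repressive DREAM complex. In dividing cells the same core joins MYBL2 (B-MYB) and then FOXM1, and these assemblies switch on the genes of G2 and mitosis; MYBL2 and RBL1 are themselves well known E2F targets.

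The promoters of 3 members are shown as examples of windows with and without an E2F word: RBL1 and MYBL2, whose RNA fell, and RBL2, whose RNA passed no test against shScramble. They were picked with the results known, and the members do not divide this way as a whole: LIN52 has an E2F word and passed no test against shScramble, and LIN54 has one and fell in 1 comparison. Each run is the 250 bases before a RefSeq start site in GRCh38.p14, 5′ to 3′ on the gene's strand. Capitals mark the words searched on both strands, which for E2F were the word TTCCCGC with its variants TTGGCGC as well as TTCGCGC along with TTGCCGC and the form TTGGCGG, and for forkhead factors TAAACA. The form TTGGCGG was included because it is the form known from the MYBL2 promoter.
RBL1, chr20:37095998-37096247, minus strand: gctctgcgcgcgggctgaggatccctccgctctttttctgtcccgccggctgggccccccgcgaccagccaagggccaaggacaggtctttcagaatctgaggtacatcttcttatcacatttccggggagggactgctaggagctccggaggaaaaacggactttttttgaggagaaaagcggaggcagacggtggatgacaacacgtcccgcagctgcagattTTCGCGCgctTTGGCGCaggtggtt
MYBL2, chr20:43666864-43667113, plus strand: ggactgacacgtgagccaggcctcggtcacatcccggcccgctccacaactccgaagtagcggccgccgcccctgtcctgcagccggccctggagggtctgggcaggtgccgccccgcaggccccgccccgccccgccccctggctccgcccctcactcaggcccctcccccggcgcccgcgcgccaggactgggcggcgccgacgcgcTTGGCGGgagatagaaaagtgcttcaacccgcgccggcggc
RBL2, chr16:53434221-53434470, plus strand: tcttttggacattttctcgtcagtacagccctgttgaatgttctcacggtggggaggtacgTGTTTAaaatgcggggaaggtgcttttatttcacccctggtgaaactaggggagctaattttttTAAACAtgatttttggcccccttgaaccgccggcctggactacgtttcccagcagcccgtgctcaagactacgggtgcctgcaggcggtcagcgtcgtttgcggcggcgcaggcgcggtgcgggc

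In these windows RBL1 had 2 E2F words, at positions -25 and -15 from its start site, and MYBL2 had 1 at -41. RBL2 had no E2F word and 2 forkhead words, at -189 and -125. Over the full windows, with the 50 bases after the start site, windows of 8 of the 10 members were used, without FOXM1 and MYBL1. The only RB1 window held no word of any kind. Its start site, at 48476450 on chromosome 13, lies inside the gene, which begins at 48303726. The bases before the beginning of RB1 were therefore not searched. Windows on chromosome 8, where MYBL1 lies, were left out of the search of the members. The 35116 windows searched in all were not limited in this way. An E2F word was in 15.7% of all windows, a forkhead word in 12.3%, and a CHR word (TTTGAA or TTCGAA, the element through which LIN54 binds DNA) in 16.4%. Of the MuvB genes, LIN54 had an E2F word at -92 beside a CHR word at -100, LIN52 had an E2F word at -24, LIN37 had a CHR word at -182 in 1 window, and LIN9 had CHR words in 1 of its 3 windows and an E2F word in another. A match of letters is a description and not a measured site. In GRCh38 coordinates (GENCODE 29), MYBL2 spans chromosome 20, 43667019 to 43716496, RBL1 chromosome 20, 36996349 to 37095995, FOXM1 chromosome 12, 2857681 to 2877155, and LIN9 chromosome 1, 226231149 to 226309869.

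Library totals ran from 25063577 to 53291599 expected counts. CARM1 itself was lower in every hairpin library than in every shScramble library of its line, with hairpin means between 13.0% and 42.5% of the control mean. The highest of these, 42.5%, belonged to hairpin 1 in SKNO1. Exons of YIPF2 on the opposite strand overlap 19.9% of the CARM1 exon bases, and the strand setting of the counting is not given. HOXA9, HOXA10 and MEIS1, known for KMT2A-rearranged leukaemia, were at 0 in 7 or 8 of the 9 SKNO1 libraries, and RUNX1T1 was at 0 in 5 of 9 MOLM-13 and 7 of 9 MV411 libraries. Among 10 markers of T, B, erythroid, epithelial and fibroblast cells, the highest value in any library was 2.15 CPM (counts scaled to a common library size), for CD3D in MOLM-13. Small structured RNAs such as RN7SL1 took 13.3% to 21.9% of counts in MOLM-13 hairpin libraries against 11.3% to 13.5% in controls. The shares were 11.3% to 15.7% against 11.2% to 13.1% in MV411, and 23.2% to 28.7% against 17.7% to 19.9% in SKNO1. These ranges overlapped in MOLM-13 and MV411 and not in SKNO1. Mitochondrial rRNA took 26.1% to 31.5% of counts against 22.9% to 26.4% in MOLM-13, where the ranges overlapped. In MV411 it took 29.4% to 34.9% against 24.9% to 27.8%, without overlap. In SKNO1 it took 0.0524% to 0.429% in hairpin libraries and 0.0747% to 0.105% in controls, so this share separates SKNO1 from the other lines in every comparison between lines. With these and the mitochondrial rRNAs removed before scaling, the log2 change of MYBL2 with hairpin 1 in MOLM-13 was -2.28, beside -2.27 in the full table. Scramble replicates 1 and 3 of SKNO1 differed less from each other than other replicate pairs did (chi-square per gene 7.03, next lowest pair 20.5). Among MV411 scramble libraries this measure was 48.5 for replicates 1 and 2, 39 for 1 and 3, and 30.9 for 2 and 3. Over 30 genes of G2 and mitosis, MV411 scramble replicates 1, 2 and 3 had means of 0.74, -0.86 and 0.12. These means are on the log2 scale relative to the control mean.

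In the control libraries MYBL2, RBL2 and RB1 were the most abundant members and MYBL1 the least. Levels between genes are given as CPM per kb of merged exon length. In MOLM-13 they were 15.5 for MYBL2, 15.5 for RBL2 and 14.5 for RB1, whose libraries overlapped, followed by 5.69 for RBL1. FOXM1 (4.35) and LIN54 (3.52) overlapped, as did LIN9 (2.35), LIN52 (2.11) and LIN37 (1.97), and MYBL1 stood clear below them at 0.436. MV411 ran from RBL2 (14.0), MYBL2 (12.6) and RB1 (11.2) through RBL1 (6.43), LIN54 (4.96) and FOXM1 (4.85) to LIN9 (2.35), LIN37 (1.87), LIN52 (1.60) and MYBL1 (0.477). SKNO1 ran from MYBL2 (14.7), RBL2 (13.6) and RB1 (7.91) through FOXM1 (4.94), RBL1 (4.43) and LIN54 (3.12) to LIN9 (2.31), LIN52 (1.62), LIN37 (1.29) and MYBL1 (0.0493). In MV411 the only neighbours in that order whose libraries did not overlap were RB1 above RBL1, LIN37 above LIN52 and LIN52 above MYBL1. In SKNO1 the neighbours without overlap were RBL2 above RB1, RB1 above FOXM1, RBL1 above LIN54 and LIN37 above MYBL1.

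MYBL1 (A-MYB, best known from germ cells) set the lines apart. Its control libraries read 3.23, 2.82 and 3.41 CPM in MOLM-13 and 4.29, 2.63 and 3.44 CPM in MV411, against 0.483, 0.306 and 0.283 CPM in SKNO1, where each library held between 14 and 23 counts. Every MOLM-13 and MV411 control library was above every SKNO1 control library. The log2 difference from SKNO1 was 3.13 ± 0.36 (SE, adjusted p = 8.31e-08 by edgeR's quasi-likelihood test) for MOLM-13 and 3.26 ± 0.37 (adjusted p = 4.63e-08) for MV411. RB1 was also higher than in SKNO1, by 0.87 ± 0.21 in MOLM-13 (adjusted p = 0.00103) and by 0.50 ± 0.21 in MV411 (adjusted p = 0.0476). LIN37 was higher by 0.61 (adjusted p = 0.0221) and 0.53 (adjusted p = 0.0440), and MV411 alone passed the test for RBL1 (0.54, adjusted p = 0.0215) and LIN54 (0.67, adjusted p = 0.0255). Thus 3 of 10 members differed between MOLM-13 and SKNO1 controls where 52.4% of all genes tested did, 5 of 10 between MV411 and SKNO1 where 52.6% did, and 0 of 10 between MOLM-13 and MV411 where 28.2% did, so none of these shares is above the share of all genes. Between MOLM-13 and MV411 no member reached an unadjusted p under 0.05, and DESeq2 called none. The MV411 calls for RB1, RBL1 and LIN54 were lost when any 1 of MV411 scramble replicates 1 and 3 and SKNO1 scramble replicates 1 and 3 was left out, at adjusted p values from 0.0636 to 0.241; RB1 was lost without SKNO1 scramble replicate 2 as well (0.0725), with RLE scaling (0.0508), with no low-count filter (0.0546) and with the abundant RNAs removed (0.0647). LIN37 in MV411 was lost when any 1 of the 3 MV411 scramble libraries was left out or without SKNO1 scramble replicates 1 or 2 (0.0507 to 0.226), and in MOLM-13 without MOLM-13 scramble replicate 1 (0.0508) or SKNO1 scramble replicate 2 (0.134). With no low-count filter LIN37 passed in neither (0.159 in MV411 and 0.0820 in MOLM-13), and with the abundant RNAs removed it was at 0.0525 in MV411.

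**Figure D1:**
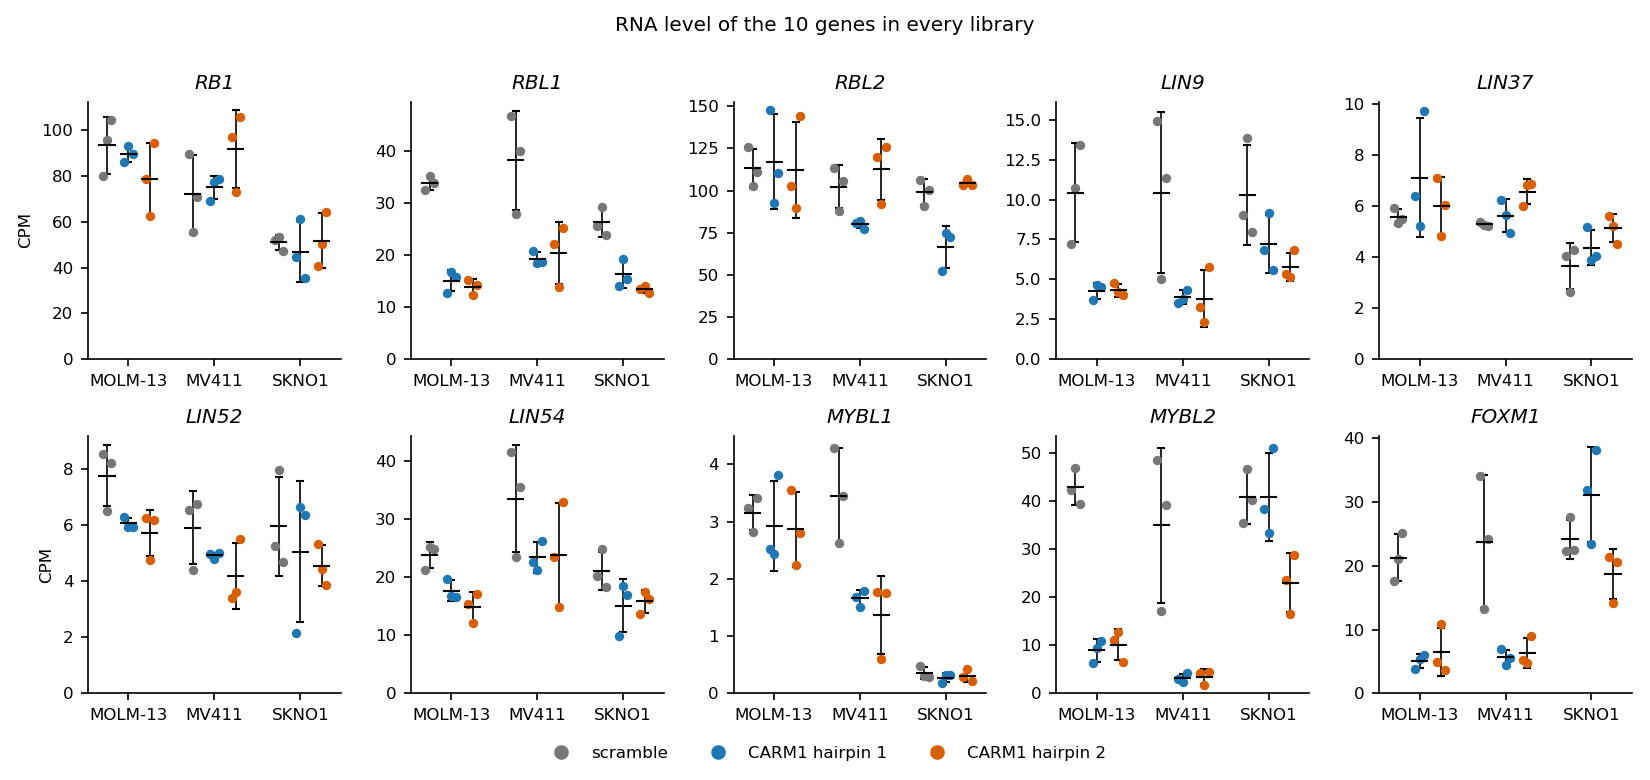
Each panel plots 1 gene in CPM (linear axis from 0) for the 27 libraries, with points for libraries, a horizontal line for the mean of 3 and bars for the SD. MYBL2, FOXM1, RBL1 and LIN9 sit low with both hairpins in MOLM-13 and MV411, RB1 and RBL2 do not, and MYBL1 is near 0 in SKNO1.

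Against shScramble, RBL1, LIN9, MYBL2 and FOXM1 fell in at least 3 of the 6 comparisons, while RB1, RBL2, LIN37 and LIN52 passed the test in none. Of the 10 members, 4 fell with hairpin 1 and 5 with hairpin 2 in MOLM-13, where 4.25% and 6.03% of all genes tested fell and 2.13% and 3.39% rose. In MV411, 3 fell with hairpin 1 and 5 with hairpin 2, where 4.13% and 10.2% of genes fell and 2.37% and 8.38% rose; with replicate number as a block, 5 passed with hairpin 1 and 6 with hairpin 2. In SKNO1, 0 passed with hairpin 1, where 0.277% of genes fell and 0.255% rose, and 2 fell with hairpin 2, where 5.69% fell and 5.54% rose. No member rose in any of the 6 comparisons. For SKNO1 hairpin 1, RBL1 and RBL2 had an unadjusted p under 0.05, and DESeq2 called both. The median log2 change of the 10 was between -0.32 and -0.76 in the 6 comparisons, against medians of all genes between -0.02 and 0.07. Both hairpins of a line were compared with the same 3 control libraries, so their results are not independent of each other. In these bulk libraries, fewer cycling cells and less RNA per cell cannot be told apart.

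**Figure D2:**
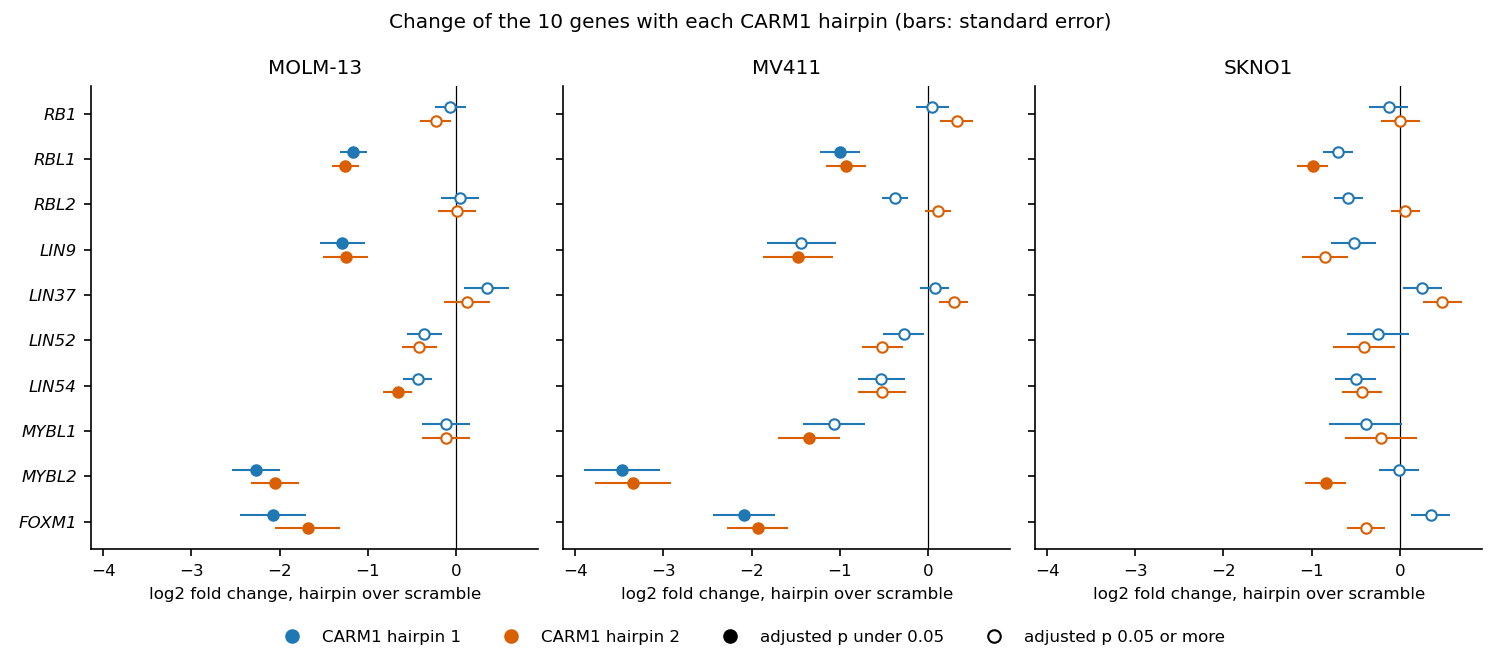
The log2 fold change of each gene, hairpin over shScramble, is on the x axis with bars for the standard error, in 1 panel per line. Filled points passed an adjusted p of 0.05 and open points did not; all filled points lie left of 0, and the lowest is MYBL2 in MV411 at -3.47.

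RBL1, the pocket protein made in cycling cells, fell in 5 of the 6 comparisons. In MOLM-13 it read 32.6, 35.2 and 33.9 CPM in the controls, 12.8, 16.8 and 15.9 CPM with hairpin 1 and 15.3, 12.4 and 14.2 CPM with hairpin 2. In MV411 the controls read 46.8, 27.9 and 40.1 CPM, hairpin 1 gave 20.8, 18.4 and 18.8 CPM and hairpin 2 gave 22.2, 13.8 and 25.2 CPM. In SKNO1 the controls read 25.7, 29.4 and 24.0 CPM, hairpin 1 gave 14.2, 19.4 and 15.5 CPM and hairpin 2 gave 13.5, 14.1 and 12.7 CPM. In all 6 groups every hairpin library was below every control library of its line. The log2 fold changes in MOLM-13 were -1.17 ± 0.15 (SE, adjusted p = 0.00297) with hairpin 1 and -1.26 ± 0.15 (adjusted p = 0.00204) with hairpin 2. In MV411 they were -0.995 ± 0.23 (adjusted p = 0.0275) and -0.93 ± 0.23 (adjusted p = 0.0170). In SKNO1 hairpin 2 gave -0.99 ± 0.18 (adjusted p = 0.00502), while hairpin 1 gave -0.70 ± 0.18 (adjusted p = 0.0895) and did not pass. Some other analyses did call it, among them the fit without its replicate 2 (-0.85, adjusted p = 0.0419) and DESeq2 (adjusted p = 0.00810). The MV411 calls did not hold in every fit with 1 library left out. The hairpin 1 call was lost without any 1 of its 3 libraries or without scramble replicates 1 or 3 (adjusted p 0.0899 to 0.113). The hairpin 2 call was lost without its replicate 1 or scramble replicates 1 or 3 (0.0540 to 0.0631). With 1 library left out, the log2 change stayed between -1.19 and -0.84 for hairpin 1 and between -1.12 and -0.72 for hairpin 2.

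RBL2, the pocket protein of resting cells, passed the test against shScramble in none of the 6 comparisons. Its means were 113 ± 11.6 CPM (SD, n = 3) in MOLM-13 controls, 117 ± 28.2 with hairpin 1 and 112 ± 28.4 with hairpin 2. In MV411 they were 102 ± 12.9, 80.0 ± 2.39 and 113 ± 18.1 CPM, and in SKNO1 99.2 ± 7.94, 66.6 ± 12.3 and 104 ± 1.94 CPM. With hairpin 1 all 3 libraries lay below all controls in MV411 and in SKNO1, with log2 fold changes of -0.37 ± 0.15 (adjusted p = 0.182) and -0.58 ± 0.17 (adjusted p = 0.127). DESeq2 passed the SKNO1 difference (adjusted p = 0.0283). The other 4 changes were between 0.01 and 0.12 on the log2 scale, and groups overlapped. RB1, the retinoblastoma protein itself, also passed in none: its 6 log2 fold changes ran from -0.23 to 0.33, its adjusted p values from 0.269 to 0.990, and every hairpin group overlapped its controls.

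The levels of these pocket genes were also set against each other in each library. The ratio of RBL2 to RBL1, each per kb, was 3.14, 2.37 and 2.67 in MOLM-13 controls, 9.42, 4.51 and 5.65 with hairpin 1 and 5.47, 5.92 and 8.25 with hairpin 2. In MV411 it was 1.97, 2.57 and 2.15 in controls, 3.15, 3.62 and 3.34 with hairpin 1 and 4.399, 5.43 and 4.07 with hairpin 2. SKNO1 had 3.37, 2.51 and 3.41 in controls, 3.01, 3.15 and 3.81 with hairpin 1 and 6.22, 6.13 and 6.63 with hairpin 2. The hairpin libraries were above all controls in 5 of the 6 groups and overlapped them for hairpin 1 in SKNO1. A two-sided exact permutation test gave p = 0.1 in each of the 5, which is the smallest p that 3 against 3 libraries allow, and p = 0.6 for the other. This test cannot therefore reach the threshold with 3 libraries against 3, and the ratio is given as a description.

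**Figure D3:**
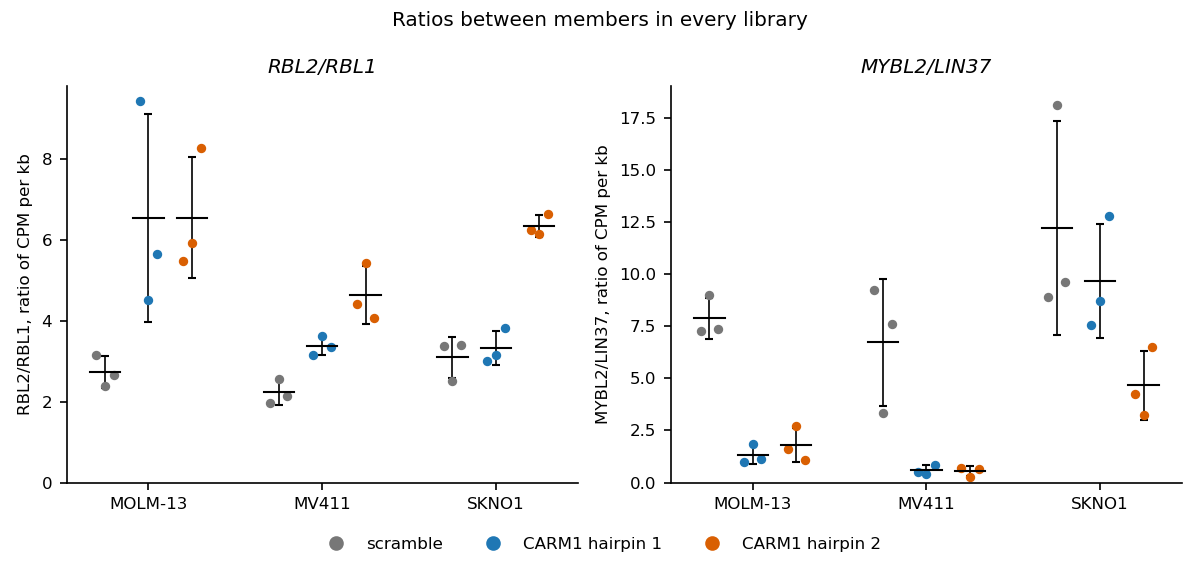
Ratios of CPM per kb in each library, RBL2 over RBL1 on the left and MYBL2 over LIN37 on the right, on linear axes from 0, with points for libraries, lines for means and bars for SDs. RBL2 over RBL1 is between 4.51 and 9.42 in all 6 MOLM-13 hairpin libraries and between 2.37 and 3.14 in the controls. MYBL2 over LIN37 overlaps the controls for hairpin 1 in SKNO1 and lies below them in the other hairpin groups. The counts of LIN37 are uncertain, because its exons overlap other genes.

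In the MuvB core, LIN9 fell in 3 comparisons, LIN54 in 1 and LIN37 and LIN52 in none. LIN9, the scaffold that binds MYBL2 together with LIN52, read 7.20, 10.7 and 13.4 CPM in MOLM-13 controls, 3.71, 4.63 and 4.52 CPM with hairpin 1 and 4.78, 4.19 and 4.01 CPM with hairpin 2, with no overlap. Its log2 fold changes there were -1.29 ± 0.25 (adjusted p = 0.0164) and -1.25 ± 0.25 (adjusted p = 0.0162). In MV411 the controls read 14.9, 4.997 and 11.4 CPM, hairpin 1 gave 3.52, 3.78 and 4.35 CPM (-1.43 ± 0.39, adjusted p = 0.0552) and hairpin 2 gave 3.28, 2.33 and 5.79 CPM (-1.47 ± 0.39, adjusted p = 0.0246). The low control is scramble replicate 2, and without it the hairpin 1 difference passed (-1.78, adjusted p = 0.00811), as it did in DESeq2 (adjusted p = 0.00511) and with replicate number as a block (-1.32, adjusted p = 0.0173). In SKNO1 the changes were -0.52 ± 0.25 (adjusted p = 0.324) and -0.85 ± 0.26 (adjusted p = 0.0516), and DESeq2 passed the second (adjusted p = 0.0192). Each LIN9 call was lost in some fits with 1 library left out. The log2 change in those fits stayed between -1.50 and -1.07 for MOLM-13 hairpin 1 and between -1.47 and -1.04 for hairpin 2. For MV411 hairpin 2 it stayed between -1.91 and -1.13. In MOLM-13 the hairpin 1 call was lost without any 1 of its 3 libraries or scramble replicates 2 or 3 (adjusted p 0.0552 to 0.0792), and the hairpin 2 call without scramble replicates 2 (0.0644) or 3 (0.0749). In MV411 the hairpin 2 call was lost without its replicates 1 or 2 or scramble replicates 1 or 3 (0.0588 to 0.103).

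LIN54, the subunit that reads the CHR element, was below 0 in all 6 comparisons (-0.66 to -0.43) and fell in 1, hairpin 2 in MOLM-13, from 21.3, 25.2 and 25.0 CPM in controls to 15.4, 12.1 and 17.1 CPM (-0.66 ± 0.17, adjusted p = 0.0366). That call was lost without hairpin 2 replicates 1 or 2 or scramble replicates 2 or 3 (adjusted p 0.0607 to 0.144) and in a single fit of all libraries (0.0653). LIN52, the subunit whose phosphorylation by DYRK1A directs DREAM assembly, was between -0.52 and -0.25 in the 6 comparisons with adjusted p values from 0.158 to 0.773. In MOLM-13 it read 8.55, 6.52 and 8.24 CPM in controls, 6.31, 5.95 and 5.96 CPM with hairpin 1 and 6.25, 4.78 and 6.18 CPM with hairpin 2, with no overlap but no call. In MV411 with hairpin 2, LIN52 (-0.77, adjusted p = 0.0430) and LIN54 (-0.83, adjusted p = 0.0484) passed when hairpin 2 replicate 3 was left out, and LIN54 passed with replicate number as a block (-0.54, adjusted p = 0.0428) and with no low-count filter (0.0358). LIN37, a subunit needed for repression by DREAM, was between 0.08 and 0.48, with adjusted p values from 0.185 to 0.859. With hairpin 2 it lay above all controls in MV411 (5.99, 6.83 and 6.84 CPM against 5.36, 5.26 and 5.23 CPM) and in SKNO1 (5.62, 5.23 and 4.53 CPM against 4.05, 2.62 and 4.26 CPM). Its counts are uncertain, because 41.8% of its exon bases overlap a gene on the opposite strand and 26.7% overlap a gene on the same strand, and the strand setting of the counting is not given in the sources used here. RBBP4, the histone-binding subunit shared with other complexes, fell in 1 of the 6, MV411 hairpin 2, from 192, 156 and 197 CPM to 112, 93.4 and 144 CPM (-0.67 ± 0.16, adjusted p = 0.0172); 18.0% of its exon bases overlap SYNC on the opposite strand.

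MYBL2, the activating partner of MuvB in S and G2 phase, showed the lowest fold changes of the 10 in MOLM-13 and MV411 with both hairpins. In MOLM-13 it read 42.3, 47.1 and 39.6 CPM in controls, 6.27, 9.55 and 11.02 CPM with hairpin 1 and 11.1, 12.8 and 6.55 CPM with hairpin 2. In MV411 it read 48.7, 17.2 and 39.2 CPM in controls, 3.06, 2.31 and 4.19 CPM with hairpin 1 and 4.22, 1.74 and 4.51 CPM with hairpin 2. Even the low control, scramble replicate 2 at 17.2 CPM, was above every MV411 hairpin library, and no group of either line overlapped its controls. The means were 20.8% and 23.6% of the control mean in MOLM-13 and 9.10% and 9.96% in MV411. The log2 fold changes were -2.27 ± 0.28 (adjusted p = 0.00217) and -2.05 ± 0.27 (adjusted p = 0.00279) in MOLM-13, and -3.47 ± 0.43 (adjusted p = 0.00276) and -3.34 ± 0.43 (adjusted p = 0.000658) in MV411. These 4 calls held in all 6 other analyses and without any single library, where the log2 change stayed between -1.81 and -3.81.

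In SKNO1 the hairpins gave different MYBL2 levels. The controls read 35.5, 46.7 and 40.3 CPM, hairpin 1 gave 38.4, 33.4 and 51.0 CPM and hairpin 2 gave 23.6, 16.6 and 28.9 CPM. Hairpin 1 overlapped the controls (-0.01 ± 0.23, adjusted p = 0.988), and hairpin 2 lay below them (-0.84 ± 0.23, adjusted p = 0.0351). The hairpin 2 call was lost without its replicates 1 or 2 or any 1 of the 3 scramble libraries (adjusted p 0.0693 to 0.144), and in a single fit of all libraries (0.130).

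FOXM1, the forkhead factor that joins MuvB and MYBL2 at mitotic genes, fell in both KMT2A-rearranged lines and passed no test in SKNO1. Its controls in MOLM-13 read 17.7, 21.1 and 25.2 CPM, hairpin 1 gave 3.79, 5.40 and 5.99 CPM and hairpin 2 gave 4.99, 10.8 and 3.64 CPM. In MV411 the controls read 34.0, 13.2 and 24.1 CPM, hairpin 1 gave 6.94, 4.50 and 5.48 CPM and hairpin 2 gave 5.197, 4.70 and 9.05 CPM. In SKNO1 the controls read 22.3, 27.7 and 22.5 CPM, hairpin 1 gave 31.8, 23.4 and 38.2 CPM and hairpin 2 gave 21.4, 14.2 and 20.6 CPM. No MOLM-13 or MV411 hairpin library reached its controls; in SKNO1 hairpin 1 overlapped them and hairpin 2 lay just below. The log2 fold changes were -2.08 ± 0.38 (adjusted p = 0.0118) and -1.68 ± 0.37 (adjusted p = 0.0220) in MOLM-13, and -2.09 ± 0.35 (adjusted p = 0.00691) and -1.93 ± 0.35 (adjusted p = 0.00356) in MV411. They were 0.35 ± 0.22 (adjusted p = 0.451) and -0.38 ± 0.22 (adjusted p = 0.295) in SKNO1. In MOLM-13 the hairpin 1 call was lost without scramble replicate 3 (0.0507), and the hairpin 2 call without its replicate 1 or scramble replicates 2 or 3 (0.0556 to 0.0827). Exons of ITFG2 on the opposite strand overlap 15.9% of the FOXM1 exon bases.

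MYBL1 fell in 1 comparison, MV411 hairpin 2, from 4.29, 2.63 and 3.44 CPM in controls to 1.77, 0.592 and 1.75 CPM (-1.34 ± 0.35, adjusted p = 0.0225), on 15 to 60 counts per hairpin library. The call was lost without scramble replicates 1 (0.0699) or 3 (0.0673). With hairpin 1 in MV411 it read 1.68, 1.5 and 1.80 CPM, all below the controls (-1.07 ± 0.35, adjusted p = 0.102), and DESeq2 (adjusted p = 0.0373) and the fit with replicate number as a block (-1.04, adjusted p = 0.0245) passed that difference. In MOLM-13 and SKNO1 its 4 changes lay between -0.39 and -0.11. The ratio of the MYB genes was lower with the hairpins in MOLM-13 and MV411. MYBL2 stood 36.0 ± 6.86 times (SD, n = 3) above MYBL1 per kb in MOLM-13 controls and 8.09 ± 1.94 and 9.70 ± 4.60 times above it with hairpins 1 and 2, with no overlap. In MV411 it stood 25.4 ± 7.27 times above it in controls and 4.95 ± 1.05 and 6.87 ± 0.721 times with hairpins 1 and 2, again with no overlap. In SKNO1 both hairpins overlapped the controls (321 ± 113 times in controls, 415 ± 136 and 224 ± 128 with hairpins 1 and 2). The two-sided exact permutation p was 0.1, the smallest that 3 against 3 allow, for each of the 4 groups of MOLM-13 and MV411, and 0.4 and 0.5 in SKNO1.

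The hairpins were then compared with each other, since a call with only 1 of them is no evidence that they differ. In MOLM-13 none of the 10 members differed between hairpins by edgeR, by DESeq2 or at an unadjusted p under 0.05, and 0% of all genes passed. In MV411 none passed by edgeR where 11.5% of genes did. RBL2 there had an unadjusted p of 0.00723 and was higher with hairpin 2 by 0.48 ± 0.15 (adjusted p = 0.0578); it passed in DESeq2 (0.0189) and without hairpin 2 replicate 2 (0.0175). In SKNO1, where 9.52% of genes differed, 2 of 10 did. RBL2 was higher with hairpin 2 by 0.64 ± 0.17 (adjusted p = 0.0299) and MYBL2 was lower by 0.83 ± 0.23 (log2 difference -0.83, adjusted p = 0.0404). FOXM1 in SKNO1 differed by -0.73 ± 0.22 (adjusted p = 0.0552), and passed without hairpin 1 replicate 2 (0.0250). The RBL2 call was lost without hairpin 1 replicate 3 or any 1 hairpin 2 library (0.0610 to 0.111) and with the abundant RNAs removed (0.0514), and the MYBL2 call without hairpin 1 replicates 1 or 3 or hairpin 2 replicates 1 or 2 (0.0572 to 0.203) and in a single fit of all libraries (0.135). FOXM1 passed with the abundant RNAs removed (0.0449) and in DESeq2 (0.0194). CARM1 was at 42.5% of the control mean with hairpin 1 and 15.6% with hairpin 2 in SKNO1, and the part of that gap in these differences was not tested.

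The effect of a hairpin was also set against its effect in the other lines, with interaction terms fitted over the 27 libraries. With hairpin 1, MYBL2 fell further in MOLM-13 than in SKNO1 (log2 difference -2.26, adjusted p = 0.00908) and further in MV411 than in SKNO1 (-3.46, adjusted p = 0.000802). FOXM1 did likewise, at -2.43 (adjusted p = 0.00684) and -2.44 (adjusted p = 0.0145). These were the 2 members of 10 that differed in each pair of lines, where 4.56% and 0.983% of genes did. With hairpin 2, 1 member of 10 passed, MYBL2 in MV411 against SKNO1 (-2.49, adjusted p = 0.0110), where 0.927% of genes did. With hairpin 2 FOXM1 in the same pair was -1.53 (adjusted p = 0.131), and in MOLM-13 against SKNO1, where 0.489% of genes passed, MYBL2 was -1.26 (adjusted p = 0.229) and FOXM1 -1.35 (adjusted p = 0.199); the last passed without MOLM-13 hairpin 2 replicate 2 (0.0348). Between MOLM-13 and MV411 no member passed with hairpin 1, where 0% of genes did, or with hairpin 2, where 0.0705% did. MYBL1 and MYBL2 had an unadjusted p under 0.05 in both of these, and DESeq2 called no member. The FOXM1 call in MV411 against SKNO1 was lost without any 1 of MV411 hairpin 1 replicate 2, MV411 scramble replicate 1, SKNO1 hairpin 1 replicate 3 and SKNO1 scramble replicates 1 and 3 (adjusted p 0.0534 to 0.0644).

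The partners and targets of the members were read from lists written for this report. Of 8 other proteins of the DREAM system (RBBP4, E2F4, E2F5, TFDP1, TFDP2, DYRK1A, SIN3B and HDAC1), 1 fell with each hairpin in MOLM-13, 0 and 4 in MV411 with hairpins 1 and 2, and 0 with either in SKNO1. The shares of all genes that fell were 4.25% and 6.03%, 4.13% and 10.2%, and 0.277% and 5.69%, so 1 of 8 is near the background. TFDP1, the dimer partner of the E2F factors, fell in 3 comparisons, at -0.59 (adjusted p = 0.0446) and -0.80 (adjusted p = 0.0124) in MOLM-13 and at -0.62 (adjusted p = 0.0198) with hairpin 2 in MV411. E2F4, the repressive E2F of DREAM, fell (-0.57, adjusted p = 0.00872), as did TFDP2 (-0.67, adjusted p = 0.0147), both with hairpin 2 in MV411. E2F5, DYRK1A, SIN3B and HDAC1 passed in none of the 6. The median of the 8 ran from -0.37 to 0.0017.

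Among 14 kinases, cyclins and inhibitors that set pocket protein phosphorylation, 5 and 6 fell in MOLM-13, 5 and 10 in MV411, and 0 and 4 in SKNO1, with hairpins 1 and 2 in that order, where 4.25% and 6.03%, 4.13% and 10.2%, and 0.277% and 5.69% of all genes fell. CDK1 and CDK2, which phosphorylate pocket proteins and drive S phase and mitosis, fell in 5 of 6 comparisons, with log2 changes in MOLM-13 of -2.27 and -2.49 for CDK1 (adjusted p = 0.00363 and 0.00239) and of -1.32 and -1.501 for CDK2 (adjusted p = 0.0102 and 0.00529). CCNE2 (cyclin E2) and CCNA2 (cyclin A2) fell in the 4 comparisons of MOLM-13 and MV411. CCNE1 fell in 3, CCND3, CDK4 and CDKN2C in 2 each, and CCND1, CCND2 and CDK6 in 1 each. CDKN1A, which encodes the inhibitor p21, was the gene of the list that rose, with hairpin 2 in MV411 (0.85 ± 0.25, adjusted p = 0.0382) and in SKNO1 (2.14 ± 0.31, adjusted p = 0.00184). CDKN1B and CDKN2D passed in none.

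Known targets of these complexes fell in MOLM-13 and MV411 with both hairpins, while in SKNO1 some fell with hairpin 2 and none passed with hairpin 1. The shares of all genes that fell were 4.25% and 6.03% in MOLM-13, 4.13% and 10.2% in MV411, and 0.277% and 5.69% in SKNO1. Of 25 E2F targets of the G1/S transition, 24 fell with each hairpin in MOLM-13 and MV411, 0 with hairpin 1 in SKNO1 and 19 with hairpin 2. Their median log2 changes were -1.96, -1.72, -2.11, -2.25, -0.35 and -0.96, in the order MOLM-13, MV411, SKNO1 and hairpin 1 before 2. Of 30 targets of MuvB, MYBL2 and FOXM1 in G2 and mitosis, 29 and 29 fell in MOLM-13, 27 and 26 in MV411, and 0 and 10 in SKNO1, with medians of -1.91, -2.02, -2.43, -1.96, -0.39 and -0.77. CDC45, a subunit of the replicative helicase, had log2 changes of -2.40 and -2.56 in MOLM-13 (adjusted p = 0.00352 and 0.00255) and of -3.64 and -3.95 in MV411 (0.00148 and 0.000197). AURKB, the mitotic kinase Aurora B, had log2 changes of -2.46 and -2.37 in MOLM-13 (0.00291 and 0.00300) and of -3.54 and -2.89 in MV411 (0.00210 and 0.000704). In SKNO1 with hairpin 2, KIF2C, a mitotic motor, was at -1.67 (adjusted p = 0.000929), HMMR, a spindle protein, at -1.79 (0.00318), CHAF1B, a histone chaperone subunit of replication, at -1.36 (0.00286), and GINS2, another helicase subunit, at -1.42 (0.00291). SKNO1 with hairpin 2 thus had 19 of 25 G1/S genes lower beside 10 of 30 G2/M genes, and RBL1 and MYBL2 lower beside FOXM1 at -0.38; the difference between these shares was not tested.

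The genes most like the 4 members that fell in at least 3 comparisons were then ranked. Over the 27 libraries, with each gene centred within its line and 10254 genes compared, the genes with the highest Pearson correlation to RBL1 were FIGNL1 (0.971), CDC7 (0.965) and RRM1 (0.963). For LIN9 they were SPDL1 (0.968), ANLN (0.966) and PLK4 (0.965), for MYBL2 TCF19 (0.985), CDC45 (0.979) and KIFC1 (0.978), and for FOXM1 KIF18B (0.974), ESPL1 (0.971) and WHSC1 (0.966). These values include the difference between hairpin and control groups, and the libraries share depth and scaling, so they are given as a description. Centred within each group instead, which removes the hairpin effect, MYBL2 and FOXM1 had a correlation of 0.783 and RBL1 and LIN9 of 0.789. RBL2 with MYBL2 was at -0.014 and LIN37 with MYBL2 at -0.128. These pairs are examples: over all other members, RBL2 ran from -0.219 with FOXM1 to 0.657 with LIN54 within groups. RB1, which passed no test against shScramble, had 0.751 with LIN9 and 0.646 with RBL1 within groups, against 0.309 and 0.237 when centred by line. In MV411, replicate 2 was the lowest library for RB1, LIN9 and RBL1 in both the control group and the hairpin 2 group. The part of these libraries in the within-group values was not tested.

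**Figure D4:**
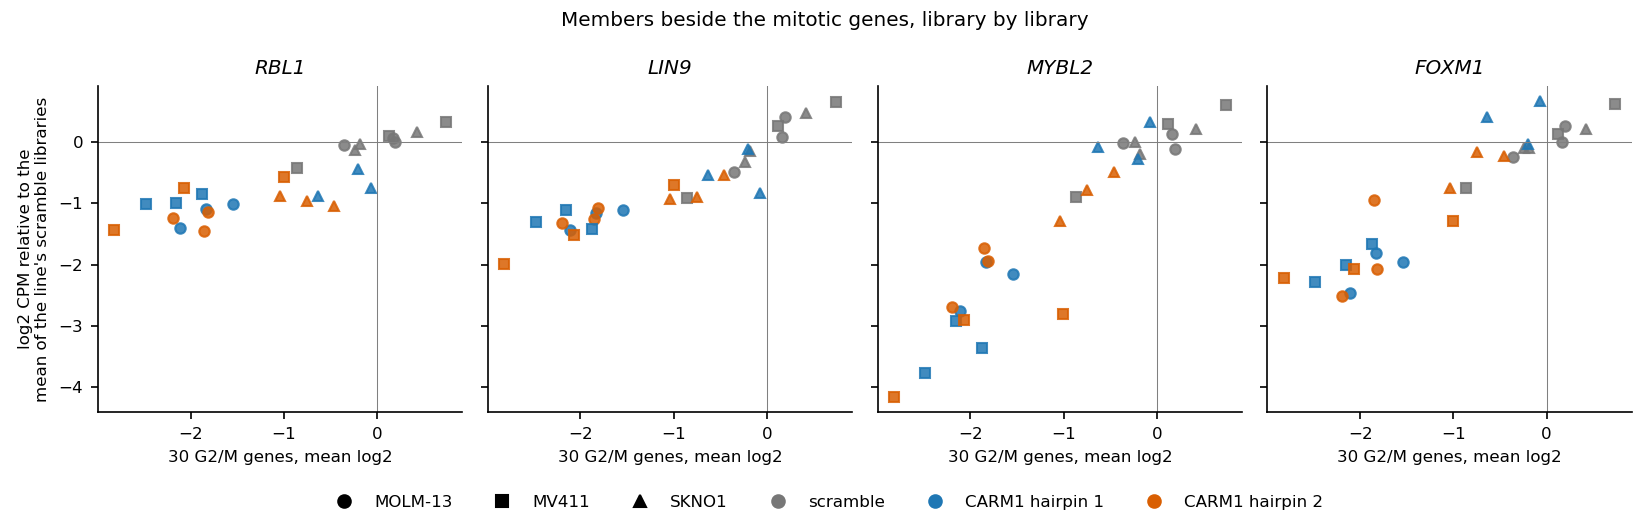
Each point is a library, with the mean log2 CPM of 30 G2/M genes on the x axis and that of RBL1, LIN9, MYBL2 or FOXM1 on the y axis, both relative to the mean of the line's shScramble libraries. MV411 hairpin 2 replicate 2 is lowest on the x axis (-2.82), hairpin libraries of MOLM-13 and MV411 lie at the lower left, and MV411 scramble replicate 2 (-0.86) lies between them and the other controls.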

How the data were processed

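The 27 libraries were made with a ribosomal-RNA-depleted stranded total RNA kit, per the labels' protocols. STAR 2.5.3, RSEM (version not given) and GRCh38.p7 are named in the submitters' processing notes. The authors deposited RSEM expected counts per gene (57992 genes; 30.39% of non-zero values were not whole at a tolerance of 1e-09), which were rounded to whole numbers here. The strand setting of the counting is not given in the sources used here. Totals were 25063577 to 53291599 per library.

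edgeR 4.0.16 in R 4.3.3 was run on each line's 9 libraries (TMM scaling, filterByExpr with a minimum count of 10, quasi-likelihood test, Benjamini-Hochberg adjustment over 17732, 17816 and 18430 genes, threshold 0.05). Control baselines and line-by-hairpin interactions came from a fit of all 27 libraries (21262 genes). All 10 members passed the filter. Levels are CPM on TMM-scaled library sizes, divided between genes by merged exon length from GENCODE 29. Promoter windows are from RefSeq (GRCh38.p14). The steps were tested on simulated data.

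The alternatives were DESeq2 1.42.0, RLE scaling, no filter, a replicate block, removal of abundant RNAs, a single fit of all libraries, and each library left out. Replicate numbers are in the labels, with nothing said of pairing. All 3 same-numbered pairs had correlated deviations from their group means (r over 0.1) for MOLM-13 hairpin 1 with scramble (0.135 to 0.287), MV411 hairpin 1 with scramble (0.140 to 0.192) and MV411 hairpin 2 with scramble (0.155 to 0.501), and for these the blocked value is given beside each call it changes; this reading was made after both fits were known. The members and gene lists were chosen with earlier results of these data known. The named genes are the members, CARM1, RBBP4, every gene of the lists of DREAM partners and of kinases with their inhibitors, and from each target list the 3 with the largest summed absolute change among those passing in the most comparisons. For members passing in at least 3 of 6 comparisons, the 3 genes with the highest Pearson correlation (log2 CPM with prior count 2, centred by line, mean at least 2) are named.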

Additional observations from a re-analysis of the deposited data

Results flagged for a closer look

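For 5 results the effect of the same hairpin differed between lines by the interaction test in edgeR. With hairpin 1, MYBL2 differed by -2.26 (adjusted p = 0.00908) and FOXM1 by -2.43 (adjusted p = 0.00684) on the log2 scale between MOLM-13 and SKNO1. Between MV411 and SKNO1 with hairpin 1, MYBL2 differed by -3.46 (adjusted p = 0.000802) and FOXM1 by -2.44 (adjusted p = 0.0145). With hairpin 2, MYBL2 differed by -2.49 (adjusted p = 0.0110) between MV411 and SKNO1. CARM1 was at 19.4% and 26.2% of its control mean with hairpin 1 in MOLM-13 and MV411 and at 42.5% in SKNO1; its part in these differences was not tested. With hairpin 2 CARM1 was at 13.0% in MV411 and 15.6% in SKNO1.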

How the results depend on the processing

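The counts of members past the threshold moved by over 1.5 times as follows. For MV411 hairpin 1, 3 became 5 with no low-count filter, with the replicate block and in DESeq2. For SKNO1 hairpin 1, 0 became 1 with the replicate block and 2 in DESeq2. In a single fit of all libraries SKNO1 gave 1 in place of 2 both for hairpin 2 against control and for hairpin 2 against hairpin 1. MV411 hairpin 2 against hairpin 1 went from 0 to 1 with the block and in DESeq2. With no filter the interactions of MOLM-13 with MV411 went from 0 to 1 for either hairpin, and for hairpin 2 that of MOLM-13 with SKNO1 from 0 to 2 and that of MV411 with SKNO1 from 1 to 2. Between controls, MV411 against SKNO1 went from 5 to 3 with no filter and with abundant RNAs removed. With the block it also went from 5 to 3, and MOLM-13 against MV411 from 0 to 1. There the block compared fitted levels of a single replicate per line and not group means, so these 2 moves are not like the others. Smaller moves included MV411 hairpin 2 from 5 to 6 (no filter, replicate block), SKNO1 hairpin 2 from 2 to 3 (no filter, block, DESeq2), MOLM-13 hairpin 2 from 5 to 4 (block, single fit) and MV411 against SKNO1 controls from 5 to 4 (RLE). Leaving out 1 library each gave 2 to 4 and 2 to 5 members in MOLM-13 (hairpins 1 and 2), 2 to 4 and 2 to 7 in MV411, and 0 to 1 and 1 to 2 in SKNO1. It gave 0 to 1 for hairpin 2 against 1 in MV411 and 0 to 3 in SKNO1, 1 to 2 for MV411 against SKNO1 with hairpin 1, 0 to 1 for MOLM-13 against SKNO1 with hairpin 2, and 2 to 3 and 1 to 4 for the control comparisons of MOLM-13 and MV411 with SKNO1.

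Signs turned for changes near 0 that passed no test. RBL2 with hairpin 2 in MOLM-13 was 0.0075, and -0.039 with no filter, -0.015 with abundant RNAs removed, -0.010 in a single fit and -0.198 to 0.129 leaving out libraries. RB1 with hairpin 2 in SKNO1 was 0.006, and -0.022 with no filter and -0.2 to 0.152 leaving out libraries. MYBL2 with hairpin 1 in SKNO1 was -0.012, and 0.016 with abundant RNAs removed, 0.003 in a single fit and -0.226 to 0.116 leaving out libraries. Leaving out libraries also gave, in MOLM-13, RB1 -0.172 to 0.018 and RBL2 -0.171 to 0.177 with hairpin 1 and LIN37 -0.030 to 0.244 and MYBL1 -0.314 to 0.017 with hairpin 2. In MV411 with hairpin 1 it gave RB1 -0.117 to 0.227 and LIN37 0.000 to 0.158. In SKNO1 it gave LIN52 -0.503 to 0.074 and RB1 -0.372 to 0.023 with hairpin 1 and MYBL1 -0.536 to 0.041 with hairpin 2. The causes were not tested.

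Of 27 same-numbered pairs of libraries, 17 had correlations over 0.1 in their deviations from group means (range -0.263 to 0.501), and a library's own number was its best match in 19 of 27 cases. With the replicate block, the call named in the text for LIN54 in MOLM-13 with hairpin 2 was lost (adjusted p = 0.0605). Calls were gained in MV411 for LIN9 (0.0173) and MYBL1 (0.0245) with hairpin 1, LIN54 with hairpin 2 (0.0428) and RBL2 with hairpin 2 against 1 (0.0210), and in SKNO1 for RBL1 with hairpin 1 (0.0371), LIN9 with hairpin 2 (0.0351) and FOXM1 with hairpin 2 against 1 (0.0390). Where not every pair of a comparison was over 0.1, these correlations do not settle whether the samples are paired. SKNO1 hairpin 1 with scramble, for example, had 0.197, 0.364 and 0.075. For controls of different lines, the block compared fitted levels of a single replicate per line and not group means. RB1 (adjusted p = 0.0698) and LIN37 (0.118) in MV411 against SKNO1 did not pass there. Those values cannot be read as an effect of pairing.

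Counts of all genes also moved. MOLM-13 hairpin 1 had 1131, and 2185 with no filter, 2046 in DESeq2 and 2128 in a single fit. MOLM-13 hairpin 2 had 1671, and 2897, 2749 and 3059. MV411 hairpin 1 had 1159, and 1913 with no filter, 1819 in DESeq2 and 2250 with the block. SKNO1 hairpin 1 had 98, and 774 with no filter, 973 in DESeq2, 186 in a single fit and 458 with the block. Hairpin 2 against 1 had 0 in MOLM-13, and 59 with no filter and 1 in DESeq2; in MV411 it had 2046, and 3516 with the block. The line interactions of hairpin 1 had 0, 970 and 209 genes (MOLM-13 with MV411, MOLM-13 with SKNO1, MV411 with SKNO1), and 33, 1670 and 624 in DESeq2; with no filter the first had 285 and the last 645, and the first had 1 with the block. Those of hairpin 2 had 15, 104 and 197, and 70, 401 and 579 in DESeq2, 300, 636 and 808 with no filter and 28, 242 and 482 with the block. Leaving out 1 library gave 335 to 910 and 441 to 1586 genes in MOLM-13 (hairpins 1 and 2), 341 to 1185 and 1716 to 3548 in MV411, and 3 to 411 and 559 to 1374 in SKNO1. For hairpin 2 against 1 it gave 0 to 1 in MOLM-13, 873 to 2105 in MV411 and 601 to 2045 in SKNO1. For the interactions it gave 0 to 1, 246 to 1160 and 45 to 319 with hairpin 1 and 1 to 44, 27 to 192 and 78 to 227 with hairpin 2. The cause was not tested.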
